A study of Mus musculus with 6 samples.

Results

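Cortical progenitor identity genes are the transcription factors and cell surface, filament and metabolic genes by which neural progenitors of the developing cerebral cortex are recognised. The set held 28 genes, chosen by name but with earlier results of these data known, out of 21896 protein-coding genes of the gene table. All peaks that the authors' gene list assigned to them were taken, which gave 13 of the 3878 peaks. They belonged to 7 genes: Pax6, Emx1, Otx2, Dmrta2, Slc1a3, Tfap2c and Lmo4. The other 21 genes had no listed peak.

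The peaks came from chromatin immunoprecipitation and sequencing (ChIP-seq) of Bcl6, a zinc finger transcriptional repressor, in progenitors differentiated from mouse embryonic stem (ES) cells of the A2 lox.Cre Bcl6 line. All groups carried the tetracycline-inducible Bcl6 transgene, received cyclopamine, an inhibitor of hedgehog signalling, at 400 ng/mL from day 2 with a change of medium at day 10, and at day 12 were induced for 24 h with doxycycline at 1 µg/ml. The groups were 3 libraries precipitated with a Bcl6 antibody and 3 libraries of input DNA. Peaks were called on the pooled ChIP tags (11718276 kept) against the pooled input tags (5048582 kept), so that no value has a replicate error and no difference between peaks could be tested across replicates. The cells thus held induced Bcl6 from an introduced transgene in 1 ES line, and uninduced cells were not analysed here. Expression was not measured in these files, and the progenitor label could not be checked against markers.

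In the embryonic cortex, radial glia divide at the ventricle and are kept in their state by transcription factors such as Pax6, Emx2 and Lhx2. These factors also set the position of cortical areas, and their loss changes the size or the fate of the cortex. Intermediate progenitors, which express Eomes, and neurons, prepared by the proneural factors Neurog1 and Neurog2, descend from the radial glia. Bcl6 is known to promote the passage from cortical progenitor to neuron.

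The sequences that carry the contrast between start regions with and without a peak are those of Emx1 and Emx2, paralogous homeobox genes of the dorsal telencephalon. Emx1 was the only member with a RefSeq promoter window (250 bases before to 50 after an annotated start) that overlapped a peak. The 250 bases before the start of Emx1 (chr6:85187681-85187930, plus strand) lay wholly inside that peak, and those of Emx2 (chr19:59458440-59458689, plus strand) were over 1 Mb from any peak. Both are RefSeq sequences of GRCm38.p6, the same build as mm10, printed 5′ to 3′ with CpG dinucleotides in capitals.
Emx1: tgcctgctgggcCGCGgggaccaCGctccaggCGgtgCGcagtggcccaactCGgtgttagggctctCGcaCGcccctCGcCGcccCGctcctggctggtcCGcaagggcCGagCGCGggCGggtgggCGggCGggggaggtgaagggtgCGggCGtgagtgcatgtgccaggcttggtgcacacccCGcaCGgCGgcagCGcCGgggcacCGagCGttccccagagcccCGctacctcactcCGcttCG
Emx2: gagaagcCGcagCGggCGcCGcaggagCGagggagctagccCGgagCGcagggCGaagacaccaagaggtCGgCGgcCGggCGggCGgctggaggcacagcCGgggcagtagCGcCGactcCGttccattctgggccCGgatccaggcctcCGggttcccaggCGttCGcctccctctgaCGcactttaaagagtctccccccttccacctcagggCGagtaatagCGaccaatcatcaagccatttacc
The stretch of Emx1 held 30 CpG and that of Emx2 held 24.

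A second set of sequences shows where letters like the Bcl6 recognition site occurred. The letters TTCCTAGAA, a form of that site, were searched on both strands together with the looser TTCCNNGAA and TTCNNNGAA, each of which also matches every site of the one before it. Windows were given for 26 of the 28 genes, 39 in all. Otx1 and Tfap2c had none in the table. None of the 39 held TTCCTAGAA, which was found in 0.411% of all 32851 windows. The form TTCCNNGAA was in 2 of the 39, those of Slc1a3 and of 1 of the 4 Otx2 starts, against 4.81% of all windows. The loosest form was in the same 2 windows, against 8.30% of all. The match is in capitals in the 250 bases before the start of Slc1a3 (chr15:8710808-8711057, minus strand) and of Otx2 (chr14:48665110-48665359, minus strand).
Slc1a3: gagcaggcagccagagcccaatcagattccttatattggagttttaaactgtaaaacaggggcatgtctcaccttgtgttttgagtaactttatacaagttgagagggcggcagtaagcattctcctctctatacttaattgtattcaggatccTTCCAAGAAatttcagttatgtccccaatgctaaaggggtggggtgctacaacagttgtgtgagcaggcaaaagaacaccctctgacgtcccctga
Otx2: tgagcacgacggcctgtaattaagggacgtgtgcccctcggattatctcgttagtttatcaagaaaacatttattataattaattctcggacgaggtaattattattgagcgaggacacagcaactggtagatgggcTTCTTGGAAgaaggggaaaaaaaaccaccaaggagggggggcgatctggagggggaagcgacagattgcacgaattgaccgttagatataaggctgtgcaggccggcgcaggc
The match, TTCCAAGAA in Slc1a3 and its reverse complement TTCTTGGAA in Otx2, began 96 bases before the start in Slc1a3 and 113 bases before it in Otx2. Neither window overlapped a peak: the nearest peak was 141 kb away for Slc1a3 and 2616 bp away for Otx2. The Emx1 window, which lay in a peak, held none of the 3 forms. Among all 2905 windows that overlapped a peak, 6.40% held the loosest form and 4.78% held TTCCNNGAA.

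Bcl6 peaks were listed for 7 of the 28 genes (25%), against 20.0% of all protein-coding genes. For 2 of 28 (7.14%), Emx1 and Tfap2c, a peak centre lay within 1 kb of the transcription start site (TSS) of the authors' list, against 10.8% of all genes. Within 5 kb the order was the other way round, with 4 of 28 (14.3%) against 12.8% of all genes. By position alone, with RefSeq gene ends and without the list, 4 of 28 (14.3%) had a peak centre in the gene or within 5 kb of it, against 18.4% of all genes. These were Pax6, Emx1, Otx2 and Tfap2c. Read against the shares of all genes, none of these stood far apart. They were not tested, since the members were chosen with earlier results of these data known.

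The 13 peaks were of ordinary strength. Their median fold enrichment over the local background was 27.99 (range 11.5 to 37.4), against a median of 21.3 and a maximum of 269 over all peaks. They were also small. Their median tag count was 40 (22 to 237), against 58 over all peaks, and their median width was 1158 bp against 1405 bp. On the p-value score of the peak caller (10 times −log10 of p), 9 of the 13 were below the median of all peaks, 71.7. On fold enrichment, 9 of the 13 were above the median. The empirical false discovery rate (FDR) of the authors' table was between 0.62% and 2.65% for all 13. Of the 13 centres, 9 (69.2%) were over 5 kb from the listed TSS and 6 (46.2%) were over 50 kb away, against 47.9% and 21.2% of all peak and gene pairs of the list. In 11 of the 13 cases the centre was downstream of the TSS, against 56.9% of all pairs. In 8 cases it lay in no annotated gene, against 30.8% of all peaks with a listed gene. Of the 13 peaks, 6 are those of 1 gene, Tfap2c, and none of these shares was tested.

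**Figure D1:**
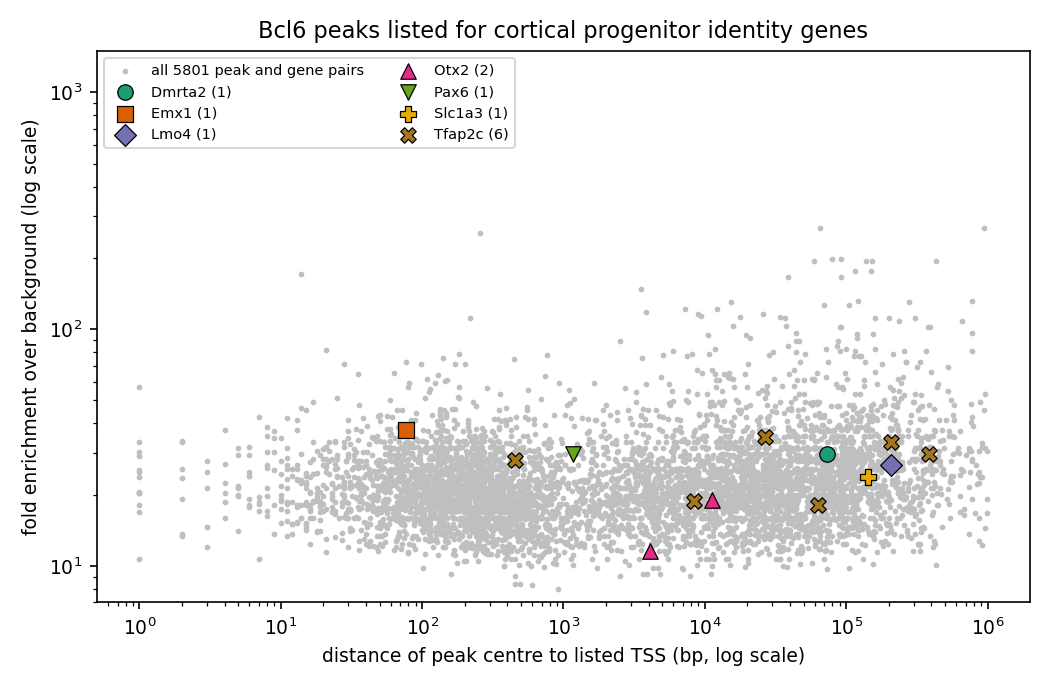
Fold enrichment of each peak (vertical, log scale) against the distance of its centre to the listed TSS in bp (horizontal, log scale). Grey points are all peak and gene pairs, and coloured symbols are the 13 peaks of the 7 genes, with their number in brackets. Emx1 at 77 bp and 37.4-fold is the highest of the 13, and the Otx2 peak at 4120 bp and 11.5-fold is the lowest.

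Transcription factors that pattern the cortex made up 15 of the 28 genes. A listed peak was found for 4 of the 15, against 20.0% of all protein-coding genes: Emx1, Pax6, Otx2 and Dmrta2. Emx1, a homeobox gene of the dorsal telencephalon that marks cortical progenitors, had the highest fold of the set. Its peak lay at chr6:85186937-85188094 in mm10, held 45 pooled ChIP tags (exact 95% Poisson interval 32.8 to 60.2, for counting error only) and reached 37.4-fold with a score of 97.7. That placed it at rank 302 of 3878 by fold and 996 by score. The summit was 448 bp upstream of the start of the RefSeq gene, and the TSS of the authors' list was 493 bp upstream of the same start. It was 1 of only 2 peaks of the set that were listed for no other gene.

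Pax6, a paired-box and homeobox gene required in radial glia and in the eye, had 1 peak at chr2:105676706-105677879. It held 40 tags (interval 28.6 to 54.5) at 29.7-fold with a score of 66.05. The centre was 1164 bp downstream of the listed TSS, which lies 7232 bp inside the RefSeq gene, so the peak was within the gene body. It fell between the 2 RefSeq promoter windows of Pax6, 7761 bp from the upstream window and 4334 bp from the downstream one. Elp4, a gene of the Elongator complex, was listed for the same peak at 227 kb. The tag intervals of the Pax6 and Emx1 peaks overlap widely, so their order by tags is within counting error.

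Otx2, a homeobox gene of the forebrain and midbrain that is also active in early epiblast, had 2 peaks unlike the other 11. They were the only ones over 2 kb wide, a width exceeded by 22.8% of all peaks. The first, at chr14:48651296-48656778, was 5483 bp wide and held 237 tags (interval 208 to 269). This was the highest tag count of the set, at rank 110 of 3878, with the highest score, 173, but its fold was only 19.0. The whole peak lay outside the annotated gene, with its near edge 3 bp past the 3′ end. The second, at chr14:48659808-48662444, was 2637 bp wide and held 85 tags at 11.5-fold, rank 3786 of 3878 by fold. It lay inside the gene, 241 bp from the promoter window of an internal start and 3029 bp from the first peak. Both were also listed for Tmem260, at 208 kb and 215 kb.

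Dmrta2, a doublesex-related factor needed for the medial cortex and its hem, had 1 narrow peak of 793 bp at chr4:110050617-110051409. It held 29 tags (interval 19.4 to 41.6) at 29.55-fold, 73.0 kb downstream of the TSS and in no annotated gene. The neuronal RNA-binding gene Elavl4 was listed for the same peak at 236 kb, so that gene and Dmrta2 share all of this evidence.

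The other 11 patterning factors had no listed peak, among them the paralogs of Emx1 and Otx2 and the Dmrta2 relative Dmrt3. Emx2 was 1.29 Mb from the nearest peak of any gene, while Emx1 lay on one. Otx1, the paralog of Otx2, was 616 kb from a peak. Dmrt3, related to Dmrta2 and active in the same medial tissue, was 1.05 Mb from one. Of the forebrain zinc finger genes, Fezf1 was 5.61 Mb and Fezf2, which specifies subcerebral projection neurons, 2.36 Mb away. The orphan nuclear receptor gene Nr2f1 (COUP-TFI), which sets caudal area identity, was 2.17 Mb from a peak and Nr2f2 (COUP-TFII) was 150 kb from one. Among the 6 paralog pairs of the set, 3 thus had listed peaks for 1 gene alone and 3, counting Neurog1 and Neurog2, for neither. A listed peak was found for only 20.0% of all protein-coding genes, and the pairs were not tested. The Dmrta2 peak was 73.0 kb from its TSS and was also listed for Elavl4.

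Lhx2, the LIM homeobox selector gene of the cortex, had its nearest peak 51.5 kb away, at 18.6-fold and 205 bp from the TSS of Dennd1a. Nr2e1 (Tlx), an orphan nuclear receptor that maintains neural stem cells, was 59.3 kb from a peak at the TSS of Snx3. Six3, a homeobox gene of the rostral forebrain, was 519 kb from a peak of 71.3-fold at the TSS of Srbd1. Sp8, a zinc finger gene of the rostral patterning centre, was 544 kb from a peak at the TSS of Sp4, its relative. That peak was 12.9-fold. Each of these 4 nearest peaks was centred within 1 kb of another gene's TSS, and the list did not assign it to the progenitor gene. How often this holds over all genes without a listed peak is not given.

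Genes that mark the radial glial cell made up 8 of the 28. Of these 8, 1 gene, Slc1a3, had a listed peak, against 20.0% of all protein-coding genes. So small a count was not tested. Slc1a3 encodes GLAST, the glutamate and aspartate transporter of radial glia and astrocytes. Its peak at chr15:8568523-8569902 held 39 tags (interval 27.7 to 53.3) at 23.6-fold and lay 142 kb downstream of the TSS, beyond the end of the gene. The transcript Gm2310 was listed for the same peak and was nearer, at 49.3 kb. The intermediate filament genes had none: Nes was 22.1 kb from a peak of 13.3-fold at the TSS of its neighbour Crabp2, and Vim was 3.69 Mb from any. Fabp7, the fatty acid binding protein of radial glia, was 709 kb from a peak. Prom1, which encodes the surface protein CD133, was 124 kb away. Hopx, Tnc and Ptprz1, genes known from outer radial glia, were 172 kb, 401 kb and 5.24 Mb away.

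Of the 5 remaining regulators, Tfap2c and Lmo4 had listed peaks, against 20.0% of all protein-coding genes. The proneural genes Neurog1 and Neurog2 were 107 kb and 201 kb from the nearest peak, and Eomes, the T-box gene of intermediate progenitors, was 316 kb from one. Lmo4, a LIM-only cofactor with a part in cortical area formation, had 1 peak at chr3:144412751-144413698, 208 kb upstream of its TSS. It held 35 tags (interval 24.4 to 48.7) at 26.6-fold. The same peak was listed for Hs2st1, a heparan sulphate sulphotransferase gene, at 157 kb, and so lay nearer to that gene.

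Tfap2c, which encodes the factor AP-2γ of basal progenitors and is also active in trophoblast and germ cells, had 6 peaks. In the authors' list, 6 genes in all had 6 or more. The first peak, at chr2:172549551-172551523, was centred 454 bp upstream of the listed TSS and was listed for Tfap2c alone. It held 69 tags (interval 53.7 to 87.3) at 27.99-fold with a score of 116. The listed TSS was 5313 bp inside the RefSeq gene, so this peak lay in the annotated gene body. The next peaks followed at 8.35 kb (18.9-fold, 40 tags), 26.6 kb (34.85-fold, 40 tags) and 63.1 kb (18.1-fold, 45 tags) downstream. The third of the 6 lay in the long noncoding RNA gene Gm36038.

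The last 2 peaks were nearer to Bmp7, a bone morphogenetic protein gene that is the next protein-coding gene downstream. At 208 kb from Tfap2c and 182 kb from Bmp7, the first of them had 33.5-fold and 28 tags (interval 18.6 to 40.5). The other, at 385 kb, was centred inside Bmp7, 4096 bp from the Bmp7 TSS, with 29.55-fold and 22 tags (interval 13.8 to 33.3). The smallest peak of the whole data set held 20 tags. All 5 downstream peaks were listed for both genes, and they were all the peaks listed for Bmp7. The 6 peaks spanned 387 kb, and the gaps between neighbours widened from 7.13 kb next to Tfap2c to 177 kb next to Bmp7.

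**Figure D2:**
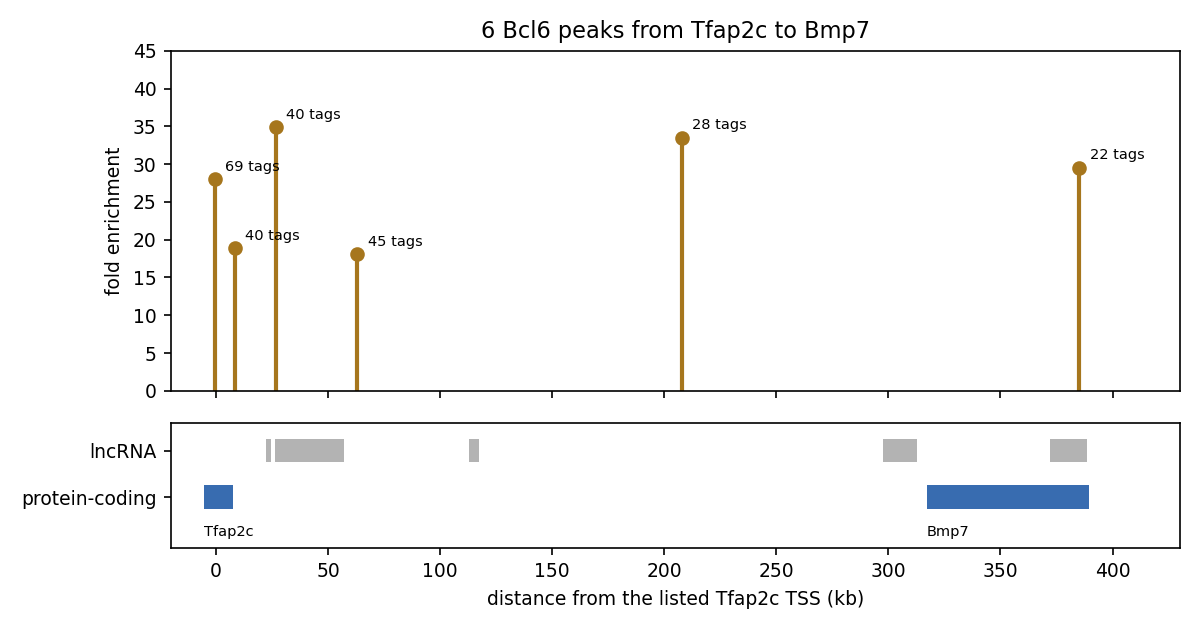
The 6 peaks listed for Tfap2c, drawn at the distance of their centre from the listed Tfap2c TSS in kb, with fold enrichment as the height and the tag count beside each. Boxes below are RefSeq protein-coding (blue) and long noncoding RNA (grey) genes between Tfap2c and Bmp7, and 4 of the 6 peaks lie within 63.1 kb of the Tfap2c TSS.

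Fold enrichment alone separated these peaks poorly. The last Tfap2c peak and the Dmrta2 peak had the same fold, 29.55, with 22 and 29 tags, and 24 peaks of the data set had exactly this value. The value of the Lmo4 peak was shared by 76 peaks. Across the set, tag density was narrow, from 28.3 to 43.2 tags per kb with a median of 36.6, against a median of 40.0 and a maximum of 273 over all peaks. The highest density, 43.2, was that of the first Otx2 peak, and the second Otx2 peak had 32.2.

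**Figure D3:**
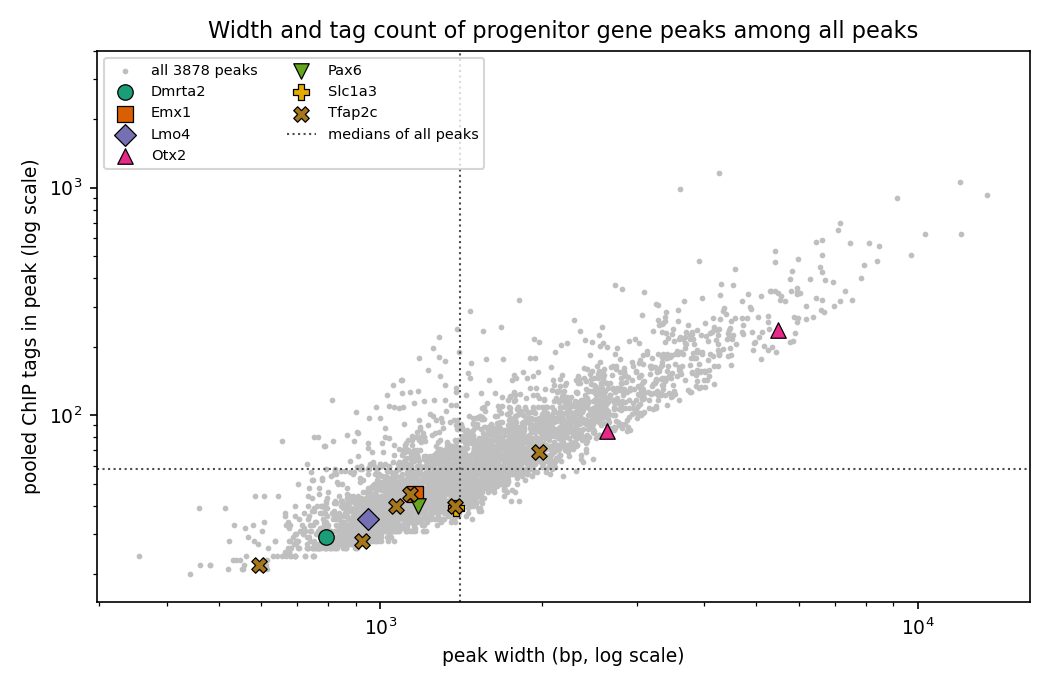
Pooled ChIP tags (vertical, log scale) against peak width in bp (horizontal, log scale) for all 3878 peaks in grey and the 13 peaks of the 7 genes in colour. Dotted lines are the medians over all peaks, 1405 bp and 58 tags, and only the Otx2 peaks and the first Tfap2c peak lie above the tag median.

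The 28 genes lay in gene-poor surroundings. The space to the neighbouring protein-coding genes on both sides had a median of 145 kb, against 32.7 kb over all protein-coding genes. In both medians a gene that overlaps another protein-coding gene, such as Pax6, was given a space of 0. A peak of any gene lay within 100 kb of 9 of the 28 genes (32.1%), against 45.3% of all genes. The median gap to the nearest peak was 204 kb, against 132 kb over all genes. No peak lay within 500 kb of 11 of the 28 (39.3%), against 27.6% of all genes. Of the 21 genes with no listed peak, 18 had none within 100 kb. In 16 of the 21 the nearest peak was centred within 1 kb of the TSS of another gene. The nearest peak to a gene with no listed peak cannot be listed for that gene. Matching shares over all genes without a listed peak are not given, so these counts cannot be read as a trait of the 21. No called peak held fewer than 20 tags, but peaks were called by p-value against background and not by tag count. The second Otx2 peak, with 85 tags, had a score of 54.1, near the lowest of all peaks, 50.03. Sites with more than 20 tags may thus also be uncalled, and a gene without a peak is one where none was called. The median spacing of the set and its median gap to a peak were both above those of all genes. How spacing and gap relate from gene to gene was not tested, and neither was the part of spacing in the counts.

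**Figure D4:**
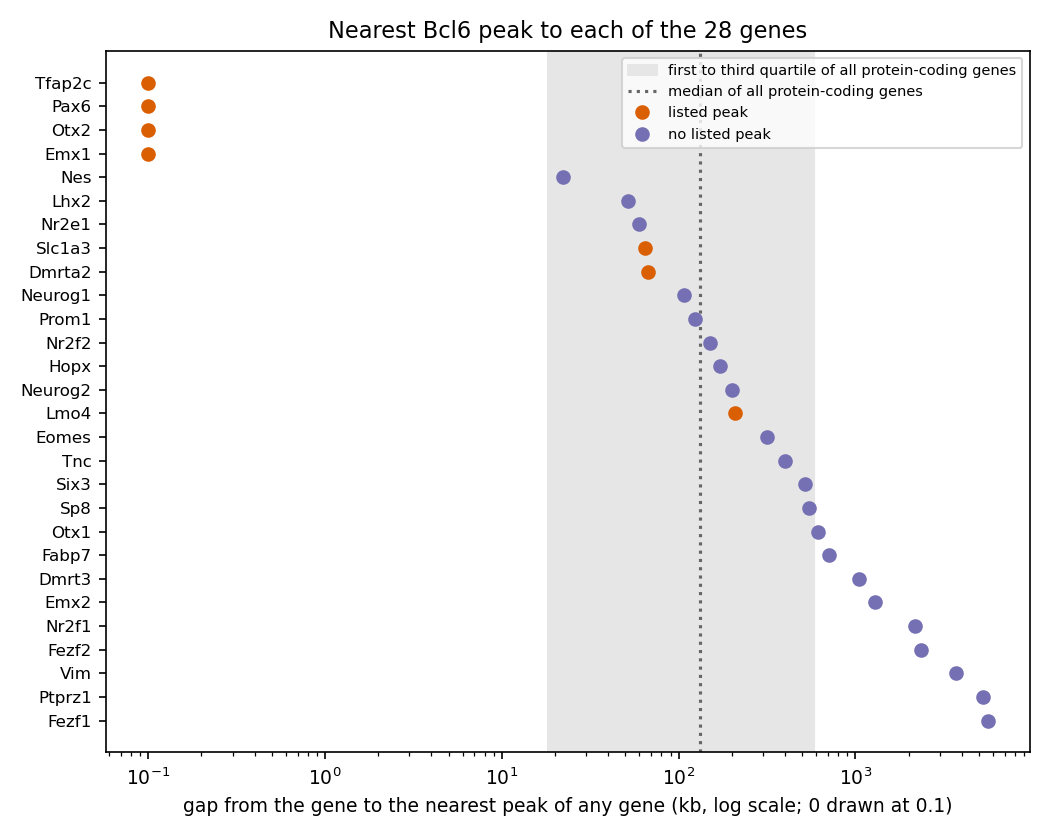
Gap in kb (log scale) from each of the 28 genes to the nearest peak of any gene, with genes that have a listed peak in orange and the others in purple. The grey band runs from the first to the third quartile of all protein-coding genes (18.2 to 582 kb) and the dotted line is their median of 132 kb. Tfap2c, Pax6, Otx2 and Emx1 overlap a peak and are drawn at 0.1 kb.

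Most start regions rich in CpG were free of peaks, both in the set and over all windows. Of the 39 windows, 1 overlapped a peak, against 8.84% of all windows. The windows of the set had a median of 16 CpG (2 to 52), against 7 over all windows and 26 over those that overlapped a peak. In all, 11 of the 39 windows, from 8 genes (Dmrta2, Emx1, Emx2, Lhx2, Lmo4, Neurog1, Ptprz1 and Sp8), held at least 26 CpG. Over all genes, 5543 of 32851 windows did. Of the 11, only that of Emx1 overlapped a peak, against 26.8% of the 5543. The windows of 1 gene overlap or neighbour each other, and the counts were not tested. The window with 52 CpG, the most in the set, belonged to Lmo4, whose peak was 208 kb away.

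Other genes of the lineage were counted for comparison. Of 32 further genes of forebrain progenitors, among them Sox, Notch and Hes genes, 19 (59.4%) had a listed peak and 8 had one within 1 kb of the TSS. The shares of all protein-coding genes were 20.0% and 10.8%. Several genes of this list were known from earlier results to have peaks. Its share is thus no independent evidence of a difference from the 28 or from all genes. The strongest peaks of that list were listed for Sox2 (55.9-fold, 95.1 kb downstream), Ccnd2 (45.4-fold, 0.554 kb upstream) and Pou3f2 (41.4-fold, 347 kb upstream). Of 32 genes of cortical neurons, 12 (37.5%) had a listed peak and 2 had one within 1 kb, against the same 20.0% and 10.8%. This list was also chosen with earlier results of these data known. Gap43 and Zbtb20 were both counted, on the same peaks. The strongest peak of the neuron list was that shared by Zbtb20 and Gap43 (193-fold), 137 kb upstream of Zbtb20 and 430 kb upstream of Gap43. Next was that of Nfia, a nuclear factor I gene (52.6-fold, 255 kb upstream). The highest of the 28 progenitor identity genes, Emx1 at 37.4-fold, was below each of these peaks, while their median of 27.99-fold was above those of the 2 lists (19.8 and 21.7).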

How the data were processed

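The labels describe 3 Bcl6 ChIP and 3 input libraries, which the authors pooled. Per the submitters' processing notes reads were aligned with Bowtie to mm10. Its version was not given in the sources used here. Per the file headers, MACS 1.4.2 called peaks at a p-value cutoff of 1e-05 with at most 1 tag per position, which kept 11718276 of 56836596 ChIP tags and 5048582 of 12808138 input tags. The tag count per peak was used as deposited, without scaling to library size. The fold enrichment is a ratio to local background, the FDR a percent and the p-value score 10 times −log10 of p, all as deposited by the authors. Genes were tied to peaks with GREAT 3.0.0, per the file headers (5000 bp upstream and 1000 bp downstream, extended by up to 1000000 bp). Peak N of that list was taken as row N of the peak table.

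Symbols, gene ends and promoter windows came from RefSeq (GRCm38.p6), by current or unique older symbol (98.5% of 5801 pairs). Over 4578 pairs the listed TSS, placed from centre and distance, was a median of 46.5 bp from the annotated gene start. It was within 1 kb of that start in 82.3% of pairs. For Pax6, Otx2 and Tfap2c the listed TSS was 7232 bp, 2398 bp and 5313 bp from it. All 28 members were named. Of each other list the 3 genes with the highest fold were named, and 1 further gene is not reported here. Readers and distance code were tested on simulated data. Python 3.11.15, pandas 2.3.3 and scipy 1.17.1 were used. The members and lists were chosen with earlier results of these data known. No test was run, since pooled calls hold no replicates and genes are not replicates. Alternatives changed the peak threshold, width, assignment, promoter window, overlap and motif.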

Additional observations from a re-analysis of the deposited data

How the results depend on the processing

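Of 40 alternatives over 8 counts and medians, 29 stayed within 1.5 times the reported value. With scores at or above the median of all peaks, 3 members (Emx1, Otx2 and Tfap2c) kept 4 peaks, against 10.8% of all genes, and the progenitor and neuron lists fell to 10 and 7 genes. With peaks within 5 kb of the TSS or in the gene, 4 members kept 4 peaks (30.8% of their pairs, against 62.4% of all pairs and 14.6% of all genes), and 7 neuron genes remained. With folds at or above the median, 6 members and 12 genes of the progenitor list remained, against 11.7% of all genes. A promoter window of 5 kb gave 4 members, against 12.8% of all genes, so that the members' share was above that of all genes there and below it at 1 kb. Each looser motif was found in 2 members, against 0 for the exact form. With the nearest listed TSS only, Slc1a3 and Lmo4 were lost, leaving 5 members, against 14.7% of all genes. No paired analysis was possible because the deposited peaks come from pooled libraries, and for the same reason no replicate could be left out. No called peak held fewer than 20 tags, but calling used a p-value cutoff, so sites with more tags may also be uncalled.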
